A study of Mus musculus with 6 samples.

Results

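The 143 genes described here stood lower in I80 than in PBS and lower again in DI150, out of 24454 gene numbers in the deposited table. PBS, I80 and DI150 are 3 cultures of MTflEcad, an epithelial line that was derived from a mouse mammary tumour of the MMTV-Neu strain, in which the mammary tumour virus promoter drives the Neu (ErbB2) oncogene. PBS cells were untreated controls (0 µM), I80 cells had received 80 µM H2O2 each day and DI150 cells 150 µM each day. The labels give a daily treatment over 7 months for all 3 groups, PBS included. All 3 groups carry the MMTV-Neu background. Bulk RNA was sequenced in 2 libraries per group. There was 1 line per dose; effects of dose and of line cannot be told apart, and the labels do not say that DI150 was derived from I80. The libraries are described as biological duplicates, without saying whether they came from separate long-term cultures, so p-values measure only the spread between these libraries. The study's comparison asks how cells kept for months under H2O2 differ in expression from cells that were not.

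Members were chosen by their measured CPM, a gene's read count scaled to 1000000 gene-assigned reads per library. A gene had to average at least 1 CPM over the 6 libraries, which 11428 genes did. On group means of log2(CPM + 0.5), both I80 minus PBS, called here the first step, and DI150 minus I80, called the second step, had to be -0.8 or lower. Since all 3 groups and all 6 libraries chose the genes, their steps are given as a description and no test is attached to any member. The mirrored rule, with both steps at least as large upward, found 118 genes.

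The members cover several processes that carcinoma cells use at their surface and in their surroundings. Matrix proteins such as fibronectin and osteopontin are secreted and bound by integrins, urokinase activates plasmin that cleaves matrix, and tubulins and actin regulators set cell shape. Wnt ligands need a lipid attached by Porcupine before they can leave the cell and bind Frizzled receptors. Growth factor and ephrin receptors at the membrane read signals from neighbouring cells, and in the mammary gland EGFR, SPARC and several keratins are used as markers of the basal layer.

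Libraries held 21017849 to 26608715 assigned reads, a single read was worth 0.0376 to 0.0476 CPM, and 13905 to 15015 genes had a read. All 8 epithelial markers examined (keratins, claudins, Epcam and Cdh1) were detected, with summed levels of 6523 and 6566 CPM in PBS, 3132 and 3112 CPM in I80, and 3477 and 3156 CPM in DI150. Of 10 fibroblast markers, 4 reached 1 CPM in a library, Pdgfrb and Thy1 were at 0 in all 6, and the sum lay between 22.7 and 25.6 CPM throughout. That sum joined markers that moved in opposite directions. Of 3 tested ones, 1 was called lower and 2 higher in I80 against PBS by limma (adjusted p under 0.05). The same split was found in DI150 against PBS. Of all tested genes, 34.2% and 36.1% were called lower in these comparisons, and 32.3% and 32.7% higher. The 12 immune cell markers summed to 9.81 and 17.3 CPM in PBS, 2.11 and 2.27 CPM in I80, and 2.14 and 2.02 CPM in DI150. Most of the PBS sum came from Csf1r, which had 7.67 and 14.5 CPM in PBS and no read in the other 4 libraries, while Adgre1, Cd3e and Tyrobp were at 0 everywhere. Of 11 endothelial and adipocyte markers, Lpl alone reached 1 CPM. Their sum was under 1 CPM in PBS and I80 and 12.3 and 14.2 CPM in DI150, with Kdr, Emcn, Adipoq and Cidec at 0. The part of these markers in the results below was not tested. In bulk RNA, fewer cells that express a gene and less RNA per cell cannot be told apart.

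The 143 members together took 12849 and 16053 CPM in PBS, 3154 and 3056 CPM in I80, and 1243 and 1097 CPM in DI150. Their median level was 29.6 CPM in PBS, 5.30 CPM in I80 and 0.786 CPM in DI150. At the upper end, 34 members exceeded 100 CPM in PBS, and 36 were under 10 CPM there. By DI150, 75 members averaged under 1 CPM, against 18 in I80. The first step had a median of -1.97 and ran down to -6.88, and the second had a median of -1.31 and ran down to -4.70, each on the log2(CPM + 0.5) scale, which understates the change of low genes. On that scale, 102 members had the larger change at the first step and 41 at the second. By plain ratios of mean CPM, compared after the data were seen, the ratio of PBS to I80 was the larger in 78 members and that of I80 to DI150 in 61; 4 others had no read in DI150 and a second ratio known only as a lower bound under the first. Among the 119 members with over 3 reads in DI150 the split was 75 and 44. For 18 members at least 75% of the whole log2(CPM + 0.5) difference lay between PBS and I80. For 2 members, Ociad2 among them, at most 25% lay there.

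**Figure D1:**
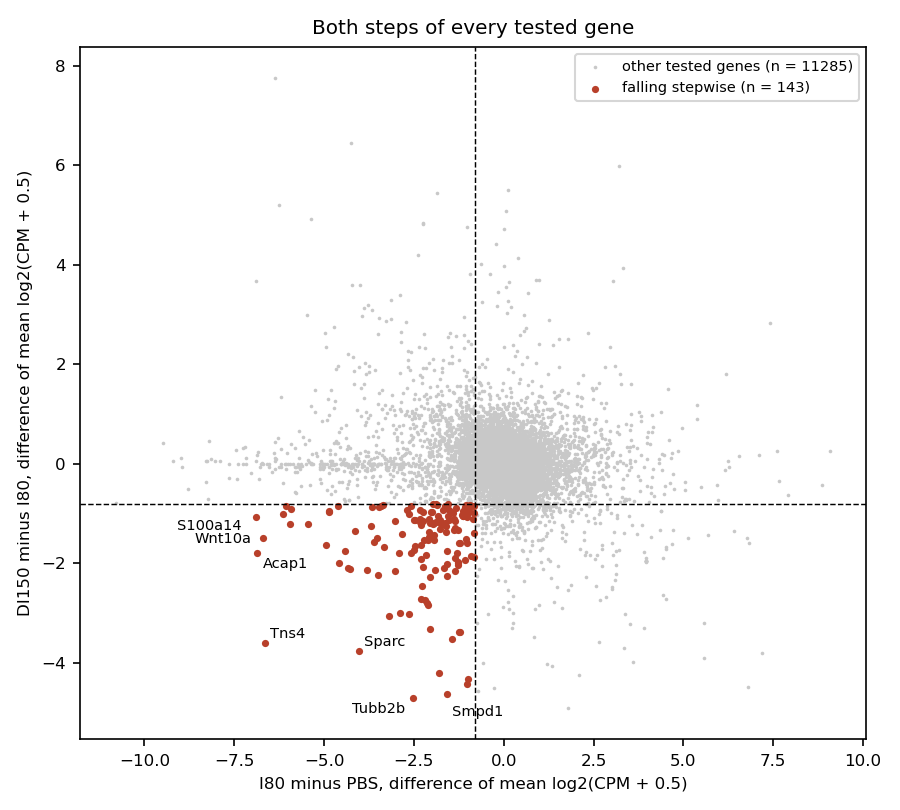
Difference of mean log2(CPM + 0.5) for I80 minus PBS (horizontal) against DI150 minus I80 (vertical), for each tested gene; red points are the 143 members, grey points the other tested genes, and dashed lines the threshold of -0.8. Acap1 and Wnt10a lie far to the left with most of their change at the first step on this scale, while Smpd1 and Tubb2b lie at the bottom with most of it at the second.

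All libraries of a group lay below all those of the next lower dose in 142 of the 143 members, an order that 12.6% of tested genes showed; the rule selected for it, so nothing is read from the count. The exception was Pgf, which encodes placental growth factor, at 3.34 and 16.3 CPM in PBS, 3.004 and 3.38 CPM in I80, and 1.28 and 1.53 CPM in DI150. Its PBS replicate 1 lay inside the range of I80. At the threshold, the members nearest to it were 5430403N17Rik, Prelp and Slc7a6, with second steps of -0.802, -0.804 and -0.810. Just outside stood Stn1, with a second step of -0.795, and Atp6v1b1 and Rps23rg1, with first steps of -0.795 and -0.789. Krt14, the basal keratin, also missed it. It stood at 1728 and 1674 CPM in PBS, 0.273 and 0.701 CPM in I80, and 0.0476 and 0.0763 CPM in DI150, with steps of -10.79 and -0.78.

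**Figure D2:**
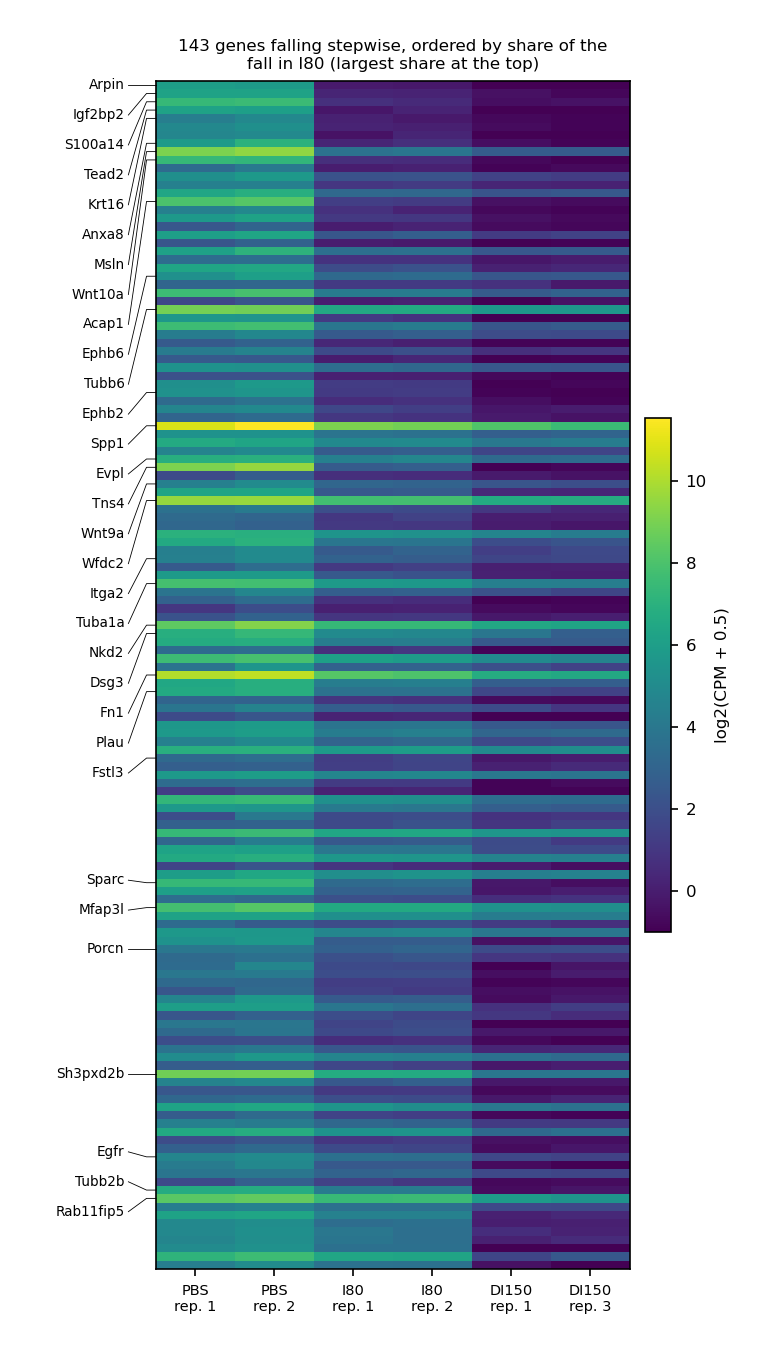
Level of each of the 143 members (rows) in the 6 libraries (columns) as log2(CPM + 0.5), with rows ordered by the share of the PBS to DI150 difference that lay between PBS and I80. Rows at the top, such as Arpin and S100a14, are already dark in I80, and rows at the bottom, such as Rab11fip5 and Tubb2b, darken mainly in DI150.

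Among matrix genes, osteopontin and fibronectin had the most reads in PBS of all 143 members, with no correction for length. Spp1 (osteopontin, a secreted phosphoprotein that binds integrins) stood at 1864 and 3008 CPM in PBS, 536 and 469 CPM in I80, and 273 and 186 CPM in DI150. Fn1 (fibronectin, chr1:71585473-71653280 in GRCm38) was at 1098 and 1321 CPM in PBS, 307 and 265 CPM in I80, and 109.7 and 95.9 CPM in DI150. Each remained a well-measured transcript in DI150. Sparc (a collagen-binding matricellular glycoprotein) was at 172 and 169.9 CPM in PBS, 9.60 and 10.6 CPM in I80, and 0.381 and 0.191 CPM in DI150, with steps of -4.02 and -3.76. Its level thus went almost to the detection limit in DI150, unlike that of Spp1 or Fn1. The scaffold gene Sh3pxd2b, whose protein TKS4 organises podosomes and invadopodia, was at 453 and 469 CPM in PBS, 106 and 103 CPM in I80, and 14.6 and 14.5 CPM in DI150. Here the second step, -2.80, was larger than the first, -2.13, and the duplicates nearly coincided.

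Genes of matrix turnover were members too. Plau (urokinase, the protease that converts plasminogen to plasmin) was at 99.6 and 117 CPM in PBS, 12.8 and 12.7 CPM in I80, and 2.66 and 2.29 CPM in DI150, steps -3.03 and -2.15. Mmp10, a stromelysin, was at 2.44 and 4.33 CPM in PBS, 1.40 and 1.03 CPM in I80, and 0.476 and 0.191 CPM in DI150. Both proteases were lower in I80 than in PBS and lower again in DI150. The receptor of urokinase, Plaur, is not a member and went the other way, at 70.99 and 58.3 CPM in PBS, 138 and 131 CPM in I80, and 359.7 and 324 CPM in DI150. In limma it was higher in I80 than in PBS by 1.06 ± 0.10 (log2, SE, adjusted p = 6.57e-05), and higher in DI150 than in I80 by 1.34 ± 0.10 (limma adjusted p = 0.000107). Col12a1, a fibril-associated collagen, was at 65.96 and 65.3 CPM in PBS, 14.5 and 11.4 CPM in I80, and 1.24 and 1.91 CPM in DI150, and Prelp, a small leucine-rich proteoglycan, was near the lower limit of the rule at 2.74 and 4.45 CPM in PBS, 0.546 and 0.618 CPM in I80, and 0 and 0.267 CPM in DI150.

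The 250 bases before the start of 2 of these genes and of another member are shown as examples of low and high CpG content, a property described further below. Each is read on the gene's own strand, 5′ to 3′, from RefSeq GRCm38.p6, with CpG pairs in capitals. Spp1 lies on chr5:104435111-104441053 (plus strand), and the first of its 2 windows, chr5:104434861-104435110, holds 3 CpG, as does the other. Sparc lies on chr11:55394159-55420080 (minus strand), and its window, chr11:55420081-55420330, holds 4. Igf2bp2, an RNA-binding regulator described further below, lies on chr16:22059009-22163299 (minus strand), and its window, chr16:22163300-22163549, holds 40.
Spp1: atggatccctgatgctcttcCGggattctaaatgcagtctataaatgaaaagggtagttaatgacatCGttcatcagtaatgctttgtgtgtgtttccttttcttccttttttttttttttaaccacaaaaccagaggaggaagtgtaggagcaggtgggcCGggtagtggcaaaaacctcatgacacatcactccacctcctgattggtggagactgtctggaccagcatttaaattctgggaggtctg
Sparc: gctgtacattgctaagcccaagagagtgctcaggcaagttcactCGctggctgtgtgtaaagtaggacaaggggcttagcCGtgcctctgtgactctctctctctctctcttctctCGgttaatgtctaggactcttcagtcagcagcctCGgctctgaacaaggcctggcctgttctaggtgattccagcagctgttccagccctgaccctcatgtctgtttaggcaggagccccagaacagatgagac
Igf2bp2: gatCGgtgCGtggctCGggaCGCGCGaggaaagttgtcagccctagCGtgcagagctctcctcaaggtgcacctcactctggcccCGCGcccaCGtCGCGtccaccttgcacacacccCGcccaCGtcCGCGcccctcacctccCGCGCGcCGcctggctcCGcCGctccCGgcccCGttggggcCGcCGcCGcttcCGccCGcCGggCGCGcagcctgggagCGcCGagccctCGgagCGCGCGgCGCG

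The mesenchymal list to which Spp1, Fn1 and Sparc belong had 11 other tested genes. Against PBS, 8 of the 11 fell and 1 rose in I80 by limma (adjusted p under 0.05), where 34.2% of all tested genes were called lower and 32.3% higher. In DI150 against PBS, 7 fell and 3 rose, where 36.1% of tested genes were called lower and 32.7% higher. Their median log2 difference was -0.90 in I80 and -1.65 in DI150, beside -0.002 and -0.03 over all tested genes. S100a4 and Mmp14 fell in I80 and were not called between DI150 and I80. S100a4, a calcium-binding S100 protein, was at 607 and 618 CPM in PBS, 5.74 and 7.25 CPM in I80, and 5.47 and 6.03 CPM in DI150, and Mmp14, a membrane metalloprotease, at 269.9 and 318 CPM in PBS, 0 CPM in both I80 libraries, and 0.0476 and 0 CPM in DI150. Snai1, an EMT transcription factor, was called lower at both steps, with 10.8 and 7.89 CPM in PBS, 5.31 and 4.20 CPM in I80, and 2.62 and 2.59 CPM in DI150. Mmp2, a gelatinase, rose in DI150, at 3.31 and 2.83 CPM in PBS, 1.87 and 1.69 CPM in I80, and 40.7 and 32.4 CPM in DI150.

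Members that join cells to each other or to matrix had a median first step of -3.97 over 10 genes. Of the role groups of at least 5 this was the largest, while the 4 secreted inhibitor, S100 and annexin genes had -4.12. The role groups were made after the values were seen. Tns4 (a short tensin of focal adhesions, chr11:99065678-99089306 in GRCm38) was at 544 and 754 CPM in PBS, 5.50 and 6.47 CPM in I80, and 0 and 0.0763 CPM in DI150. Its steps were -6.63 and -3.59 on the log2(CPM + 0.5) scale, whereas by mean CPM the ratio of PBS to I80 was 108 and that of I80 to DI150 157. Only 2 reads of it were counted in DI150. From reads pooled over the libraries of a group and scaled by their totals, the ratio of PBS to DI150 was 15230. Its exact 95% counting interval was 4216 to 125767. Msln (mesothelin, a GPI-anchored surface protein) was at 546 and 701 CPM in PBS, 12.8 and 14.6 CPM in I80, and 5.80 and 5.53 CPM in DI150. Its steps were -5.45 and -1.20. Itga2, the collagen-binding integrin subunit, was at 21.5 and 31.7 CPM in PBS, 7.22 and 6.10 CPM in I80, and 2.62 and 2.75 CPM in DI150, with a more even division between the steps.

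Desmosomal and cornified-envelope genes followed. Dsg3, a desmosomal cadherin of stratified epithelia, was at 117 and 162 CPM in PBS, 31.3 and 27.5 CPM in I80, and 14.6 and 6.56 CPM in DI150, and was the 1 member whose DI150 libraries differed by over 1 on the log2 scale. Evpl (envoplakin) was at 116 and 124 CPM in PBS, 21.5 and 26.3 CPM in I80, and 9.47 and 10.4 CPM in DI150. Its partner in the envelope, periplakin (Ppl), is not a member but was called lower at both steps by limma, at 171 and 206 CPM in PBS, 109 and 114 CPM in I80, and 71.3 and 76.9 CPM in DI150. Krt16, a keratin of activated epithelium, stood at 20.2 and 28.7 CPM in PBS, 0.624 and 0.412 CPM in I80, and 0.0952 and 0.0382 CPM in DI150. Krt79, a keratin, had steps of -4.93 and -1.63, and Nectin4, a nectin adhesion receptor, of -2.63 and -3.03; both were chosen after their values were seen. All 5 of these members were above 20 CPM in every PBS library.

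Other genes of these families went both ways. Against PBS, 34.2% of all tested genes were called lower and 32.3% higher in I80, and 36.1% and 32.7% in DI150. Of 25 other tested junction genes, 13 fell and 3 rose in I80 against PBS by limma, and 13 fell and 6 rose in DI150 against PBS. Without I80 replicate 1 the count that fell in I80 was 7, and without I80 replicate 2 it was 8. Their median differences were small, -0.28 in I80 and -0.29 in DI150. E-cadherin (Cdh1) was at 579 and 669 CPM in PBS, 400.3 and 405 CPM in I80, and 388 and 374 CPM in DI150, lower in I80 by limma and not called between DI150 and I80. Of 23 other tested integrin and focal adhesion genes, 10 fell and 8 rose in I80, and 13 fell and 6 rose in DI150. The larger tensin Tns1 rose at both steps, at 1.39 and 1.54 CPM in PBS, 6.01 and 5.77 CPM in I80, and 13.3 and 14.3 CPM in DI150, opposite to Tns4. Among 5 other tested basal and myoepithelial genes, 3 fell and 2 were not called in I80, and 4 fell and 1 was not called in DI150. Id4, an inhibitor of basic helix-loop-helix factors, was among those that fell, at 27.3 and 49.2 CPM in PBS, 0.897 and 1.20 CPM in I80, and 1.81 and 1.98 CPM in DI150.

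**Figure D3:**
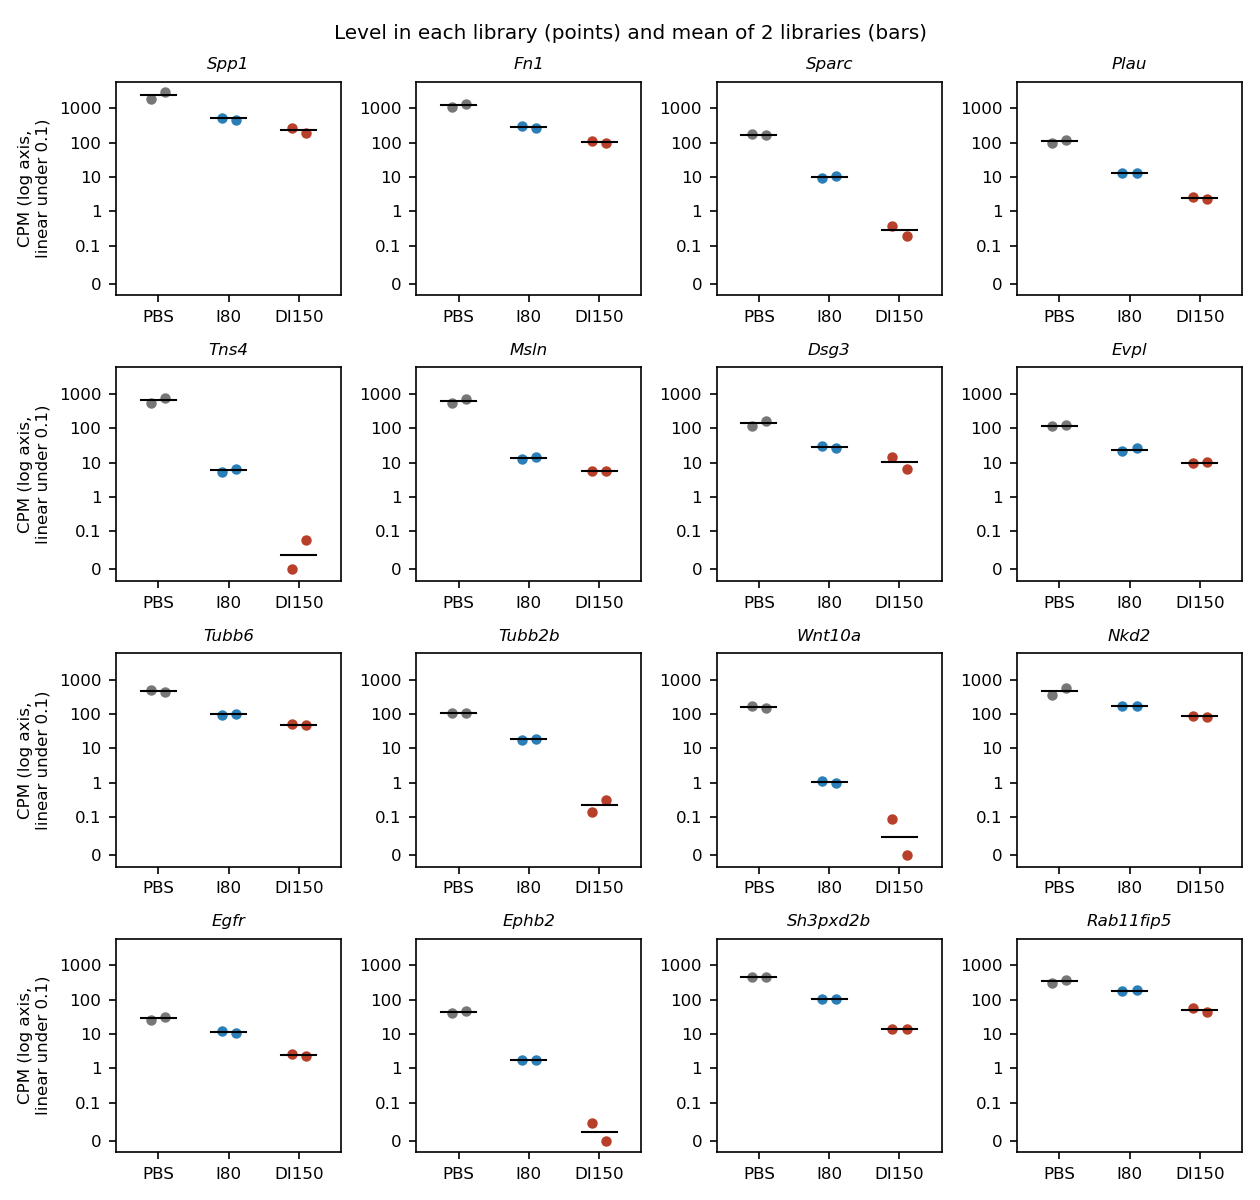
CPM in each library (points) and mean of 2 libraries (bars) for 16 members in PBS, I80 and DI150, on a log axis that is linear under 0.1 CPM. Spp1, Fn1 and Nkd2 stay above 80 CPM in DI150, whereas Tns4, Wnt10a and Ephb2 have a library at 0 there.

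Several tubulins were members. Tubb6, a beta-tubulin, was at 488 and 453 CPM in PBS, 96.1 and 99.5 CPM in I80, and 50.6 and 48.7 CPM in DI150. Tuba1a, an alpha-tubulin, was at 234 and 219 CPM in PBS, 56.97 and 50.5 CPM in I80, and 21.03 and 19.996 CPM in DI150. Tubb2b, the beta-tubulin known best from developing neurons, was at 105 and 109 CPM in PBS, 17.9 and 18.4 CPM in I80, and 0.143 and 0.305 CPM in DI150. The second step of Tubb2b, -4.70, was the largest of all 143 members on the log2(CPM + 0.5) scale, whereas that of Tubb6 was -0.97. By mean CPM the ratio of I80 to DI150 was 81.2 for Tubb2b, below the 157 of Tns4, the 105 of Ociad2 and the bound of 92.1 for Smpd1. Tns4 had only 2 reads in DI150 and Ociad2 5, so this order is uncertain. From pooled reads the Tns4 ratio was 141, with an exact 95% counting interval of 38.7 to 1170. Near-identical tubulin copies can share reads, so the divisions between these tubulins are uncertain. Among the relatives, Tubb2a was at 138 and 136 CPM in PBS, 89.2 and 87.2 CPM in I80, and 48.6 and 46.5 CPM in DI150, and Tubb5 at 2769.9 and 2329 CPM in PBS, 2065 and 1951 CPM in I80, and 1503 and 1386 CPM in DI150. Tuba1b was at 285 and 215 CPM in PBS, 151 and 141 CPM in I80, and 130 and 123 CPM in DI150. Tubb4b went the other way at the first step, at 567 and 566 CPM in PBS and 967 and 982 CPM in I80. In DI150 it was at 787 and 725 CPM, still above PBS. Tuba1c stayed between 95.2 and 102 CPM in all 6 libraries. The pseudogene Tubb2a-ps2, also a member, was at 9.81 and 10.8 CPM in PBS, 1.13 and 1.53 CPM in I80, and 0.0476 and 0 CPM in DI150, and its reads cannot be separated here from those of the functional genes.

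Actin regulators and polarity genes made up most of the rest of the 16 members of this role. Arpin, an inhibitor of the Arp2/3 complex that nucleates branched actin, was at 63.3 and 56.4 CPM in PBS, 0.429 and 0.371 CPM in I80, and 0 CPM in both DI150 libraries. With no read in DI150, its level there was at least 466-fold lower than in PBS, from a floor of 3 reads per library. Tiam1, an activator of the GTPase Rac, was at 75.1 and 81.9 CPM in PBS, 22.4 and 22.1 CPM in I80, and 0.619 and 0.878 CPM in DI150, so its larger step was the second. Basp1, a membrane-bound regulator of the cortical cytoskeleton, was at 161 and 176 CPM in PBS, 38.5 and 36.4 CPM in I80, and 10.6 and 9.88 CPM in DI150. Nav2, Afap1l2 (an actin filament associated protein) and Ckap4 (an endoplasmic reticulum protein that binds microtubules) had steps of -2.92 and -1.78, -2.49 and -1.73 and -3.20 and -3.06. These 5 genes after Arpin were grouped after their values were seen. Of 26 other tested genes on the cytoskeleton and motility list, 17 fell and 3 rose in I80 against PBS by limma, and 17 fell and 6 rose in DI150 against PBS. Over all tested genes, 34.2% fell and 32.3% rose in I80, and 36.1% fell and 32.7% rose in DI150. Beta-actin (Actb) was not called at either step, at 2893 and 2594 CPM in PBS, 2571 and 2764 CPM in I80, and 2757 and 3029 CPM in DI150.

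Wnt genes were members at several levels of the pathway. Of the ligands, Wnt10a (chr1:74792019-74804176 in GRCm38) was at 167 and 153 CPM in PBS, 1.09 and 0.989 CPM in I80, and 0.0952 and 0 CPM in DI150, and Wnt9a at 21.7 and 33.2 CPM in PBS, 8.39 and 7.58 CPM in I80, and 4.38 and 3.59 CPM in DI150. Wnt10a lost nearly all of its level at the first step, and Wnt9a less at each. Porcn, the acyltransferase that attaches the lipid to Wnt proteins, was at 15.2 and 16.5 CPM in PBS, 6.83 and 8.16 CPM in I80, and 3.09 and 3.47 CPM in DI150, with almost equal steps of -1.04 and -1.08. Nkd2, which binds Dishevelled and dampens the canonical signal, was at 352 and 590.3 CPM in PBS, 167 and 172 CPM in I80, and 90.6 and 80.6 CPM in DI150. Its PBS libraries differed by more than those of I80 or DI150.

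Among 18 other tested Wnt genes, 8 fell and 5 rose in I80 against PBS by limma, and 9 fell and 6 rose in DI150 against PBS. Over all tested genes, 34.2% fell and 32.3% rose in I80, and 36.1% fell and 32.7% rose in DI150. Wnt7b, another ligand, was at 622 and 576 CPM in PBS, 173 and 179.8 CPM in I80, and 253 and 239 CPM in DI150, so it fell in I80 and was higher in DI150 than in I80. Notum, a secreted enzyme that removes the Wnt lipid, was at 56.3 and 92.2 CPM in PBS, 0 CPM in both I80 libraries, and 0 CPM in both DI150 libraries. The repressor Tcf7l1 rose at both steps, at 9.25 and 10.6 CPM in PBS, 22.2 and 20.3 CPM in I80, and 42.2 and 43.7 CPM in DI150. In the TGF-beta and BMP family, Fstl3 (a secreted protein that binds activin) was a member at 9.25 and 10.7 CPM in PBS, 1.91 and 2.56 CPM in I80, and 0.381 and 0.496 CPM in DI150, and Smad6 (an inhibitory Smad) at 6.80 and 7.24 CPM in PBS, 2.97 and 3.92 CPM in I80, and 1.43 and 2.06 CPM in DI150. Both lay at low levels in all groups. Of 23 other tested genes of that list, 13 fell and 4 rose in I80, and 16 fell and 5 rose in DI150, against PBS. Fst, the relative of Fstl3, was at 44.3 and 57.3 CPM in PBS, 57.1 and 54.5 CPM in I80, and 6.80 and 7.10 CPM in DI150, with no call at the first step and a fall at the second (limma adjusted p = 9.75e-06).

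Receptors and signal transducers were the largest role group, with 20 members and median steps of -2.21 and -1.52. Egfr (chr11:16752203-16913907 in GRCm38), the receptor of EGF and a partner of Neu, was at 25.5 and 32.1 CPM in PBS, 12.1 and 11.1 CPM in I80, and 2.66 and 2.25 CPM in DI150. Its second step, -2.03, was larger than its first, -1.27. The ERBB and MAPK feedback list, on which Egfr is the 1 member, mostly went the other way. Of its 22 other tested genes, 2 fell and 12 rose in I80 against PBS by limma. In DI150 against PBS, 2 fell and 17 rose. Ephb2, a receptor tyrosine kinase for ephrin-B ligands, was at 40.5 and 45.8 CPM in PBS, 1.72 and 1.81 CPM in I80, and 0.0476 and 0 CPM in DI150. In DI150 it had 1 read in all, and the ratio of PBS to DI150 from pooled reads was 2033, with an exact 95% counting interval of 364 to 80329. Ephb6, a family member whose kinase domain is inactive, was at 39.05 and 66.5 CPM in PBS, 9.40 and 9.93 CPM in I80, and 4.62 and 5.08 CPM in DI150, so more of it was left. Of 31 other tested axon guidance genes, the list that holds both, 18 fell and 9 rose in I80 against PBS by limma, and 19 fell and 8 rose in DI150 against PBS. Over all tested genes, 34.2% fell and 32.3% rose in I80, and 36.1% fell and 32.7% rose in DI150.

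Further members of this group were chosen after their values were seen. Ptprs, a receptor tyrosine phosphatase that binds proteoglycans, was at 194 and 238 CPM in PBS, 18.4 and 18.1 CPM in I80, and 5.33 and 7.21 CPM in DI150. Pdgfb, a growth factor that acts on PDGF receptors, was at 127 and 121 CPM in PBS, 44.8 and 40.4 CPM in I80, and 25.98 and 18.7 CPM in DI150. Ramp1, which joins the calcitonin receptor-like receptor to form the CGRP receptor, was at 88.1 and 118 CPM in PBS, 19.6 and 21.2 CPM in I80, and 6.33 and 6.22 CPM in DI150. All 3 were above 80 CPM in every PBS library, but Pdgfb had steps of -1.53 and -0.93 and Ptprs of -3.52 and -1.48. The tyrosine kinase Fes, the phosphoinositide phosphatase Inpp4b and the atypical chemokine receptor Ackr3 had steps of -2.10 and -2.84, -3.40 and -0.85 and -2.12 and -1.53. Fes changed more at the second step, and Inpp4b mostly at the first.

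Secreted and membrane-traffic genes included several of the 12 members with the most reads in PBS. Wfdc2 (a secreted protease-inhibitor-like protein, also called HE4) was at 753 and 787 CPM in PBS, 214 and 222 CPM in I80, and 102 and 108 CPM in DI150. S100a14 (an S100 protein) was at 171 and 190.3 CPM in PBS, 1.17 and 0.907 CPM in I80, and 0.190 and 0.267 CPM in DI150. Anxa8, an annexin of epithelia, was at 57.7 and 132 CPM in PBS, 0.741 and 1.11 CPM in I80, and 0.190 and 0.0382 CPM in DI150. S100a14 and Anxa8 were thus near 1 CPM already in I80, whereas Wfdc2 had steps of -1.82 and -1.05. Acap1, a GTPase-activating protein for Arf6 in endosome recycling, was at 254 and 304 CPM in PBS, 2.03 and 1.77 CPM in I80, and 0.238 and 0.153 CPM in DI150. Rab11fip5, a Rab11 effector of recycling endosomes, was at 319 and 365 CPM in PBS, 178 and 187 CPM in I80, and 58.1 and 42.9 CPM in DI150. The recycling genes thus split, with most of the difference of Acap1 at the first step and most of that of Rab11fip5 at the second. Mfap3l, a membrane protein, was at 222 and 301 CPM in PBS, 99.03 and 98.3 CPM in I80, and 40.8 and 36.8 CPM in DI150, with steps of -1.38 and -1.34.

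Among 10 transcription and RNA regulators, the median steps were -2.25 and -0.97. Tead2, a DNA-binding partner of YAP, was at 75.1 and 66.8 CPM in PBS, 0.351 and 0.701 CPM in I80, and 0 CPM in both DI150 libraries. It had no read in DI150, at least 552-fold lower than in PBS by the same floor. Igf2bp2, which binds and stabilises mRNAs, was at 73.7 and 74.2 CPM in PBS, 0.741 and 0.701 CPM in I80, and 0.238 and 0.0763 CPM in DI150. Both were under 1 CPM in I80, so their second steps rest on few reads; with a pseudocount of 1 these were -0.60 for Tead2 and -0.58 for Igf2bp2, above the threshold of -0.8. Runx2, the osteoblast regulator, was at 42.3 and 38.98 CPM in PBS, 10.6 and 8.61 CPM in I80, and 4.85 and 4.43 CPM in DI150, though it overlaps Supt3. Nr2f2 (a nuclear receptor, COUP-TFII) was at 50.8 and 49.4 CPM in PBS, 26.5 and 29.4 CPM in I80, and 15.2 and 15.3 CPM in DI150, with the smallest whole difference of all members, -1.68. The clock repressor Bhlhe41 had steps of -3.46 and -0.87, and the chromatin reader Zmynd8 of -0.82 and -1.87. These last 4 were chosen after their values were seen.

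**Figure D4:**
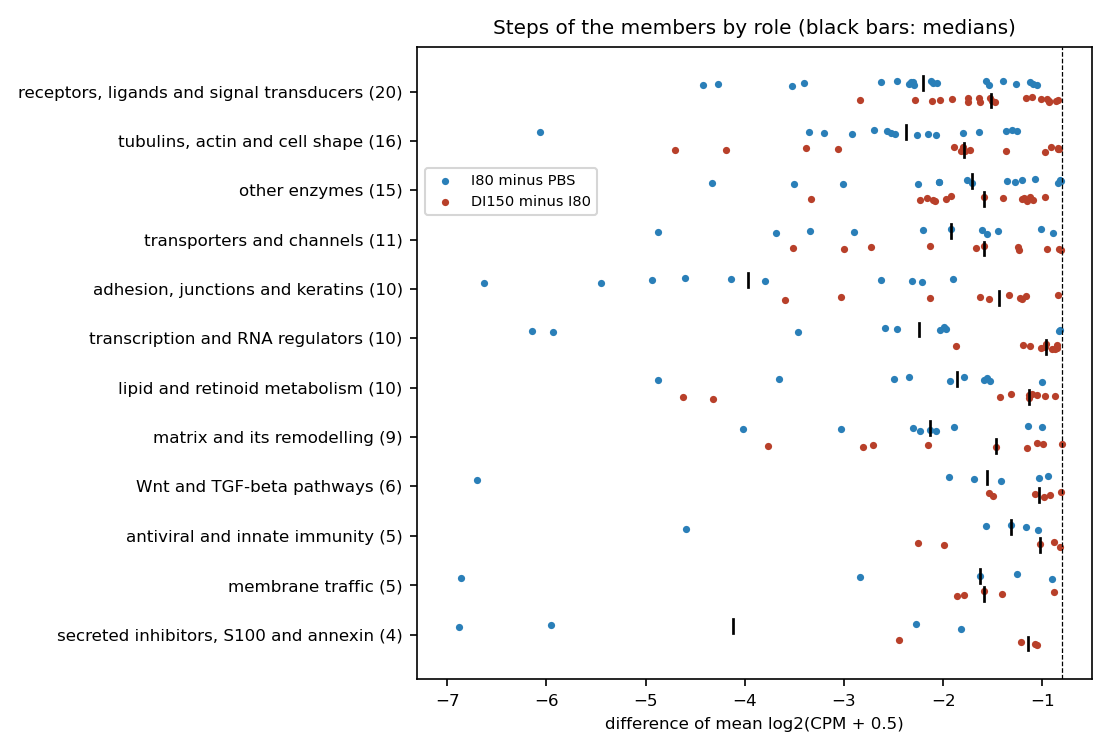
First step (blue, I80 minus PBS) and second step (red, DI150 minus I80) of each member by role, as differences of mean log2(CPM + 0.5), with black bars at the medians, the dashed line at -0.8 and the number of members in brackets; 22 members without a role group are not drawn. Adhesion genes reach -6.63 at the first step, and the group of other enzymes has medians of -1.71 and -1.59.

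Among lipid, transport and enzyme genes, grouped after their values were seen, the first step was the larger on the log2(CPM + 0.5) scale in 8 of 10 lipid and retinoid genes, 6 of 11 transporters and 7 of 15 other enzymes. By plain ratios of mean CPM the first was the larger in 4, 6 and 6 of these, with 1 lipid gene undecided. Smpd1 (acid sphingomyelinase of the lysosome) was at 32.8 and 40.7 CPM in PBS, 11.9 and 11.7 CPM in I80, and 0 CPM in both DI150 libraries. It had no read in DI150, at least 92.1-fold lower than in I80 and at least 286-fold lower than in PBS. Its second step was the larger, with steps of -1.59 and -4.63. Soat1, which esterifies cholesterol, was at 26.9 and 29.7 CPM in PBS, 0.273 and 0.742 CPM in I80, and 0 CPM in both DI150 libraries. The riboflavin transporter Slc52a3 had steps of -1.45 and -3.51, the amino acid exchanger subunit Slc7a7 -2.90 and -2.99 and its relative Slc7a6 -1.56 and -0.81. Trpv6, an epithelial calcium channel, was at 68.4 and 83.8 CPM in PBS, 4.64 and 6.35 CPM in I80, and 1.76 and 2.29 CPM in DI150. The metalloreductase Steap3 had steps of -4.87 and -0.95 and ceruloplasmin (Cp, a copper ferroxidase that overlaps Hps3) of -3.01 and -1.15. Prss23, a secreted serine protease, had nearly equal steps of -2.26 and -2.08, and Aldh1l2, a mitochondrial enzyme of folate metabolism, had steps of -3.50 and -2.23. The groups did not overlap in these genes, an order that the rule selected for.

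A few members are well known from immune cells, and the immune marker sum above moved between PBS and both treated lines as well; its part in their values was not tested. Apobec3, a deaminase that restricts retroviruses, was at 48.9 and 46.2 CPM in PBS, 1.68 and 1.32 CPM in I80, and 0 CPM in both DI150 libraries. Samhd1, which degrades dNTPs, was at 122 and 125 CPM in PBS, 56.3 and 62.9 CPM in I80, and 31.4 and 35.6 CPM in DI150. Arg1 (arginase) was at 13.3 and 45.9 CPM in PBS, 7.18 and 7.30 CPM in I80, and 3.62 and 2.25 CPM in DI150, with its PBS libraries far apart. Apobec3 overlaps Cbx7, which is not a member and stood at 15.8 and 17.2 CPM in PBS, 24.1 and 22.8 CPM in I80, and 36.8 and 40.5 CPM in DI150. In the wider set, 16 members overlap another tested gene, and whether counting used strand is not given in the sources used here, so reads of such pairs cannot be told apart. None of the 16 is among the 31 genes that the naming rule picked.

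At the second step, calls among listed genes that are not members went both ways. In DI150 against I80, 2505 tested genes (21.9%) were called lower and 21.9% higher by limma. That count of lower calls was 1246 without I80 replicate 1, 1187 without I80 replicate 2, 1451 without DI150 replicate 1 and 1662 without DI150 replicate 3. Among the non-members, 9 fell and 7 rose of 23 TGF-beta and BMP genes, 8 fell and 7 rose of 26 cytoskeletal genes, and 10 fell and 13 rose of 31 axon guidance genes. Without I80 replicate 1 those that fell numbered 4, 5 and 4, and without I80 replicate 2 they numbered 5, 4 and 5. Without DI150 replicate 1, 5 fell in the TGF-beta list and 5 in the axon guidance list. Those that rose numbered 4 in the TGF-beta list without either I80 library, and 8 in the axon guidance list without I80 replicate 1. Of the other lists, 4 fell and 5 rose of 18 Wnt genes, 5 fell and 3 rose of 25 junction genes, 5 fell and 9 rose of 23 integrin and adhesion genes, 3 fell and 2 rose of 11 mesenchymal genes, and 2 of 5 basal genes fell. Leaving out I80 replicate 1 left 2 Wnt, 1 junction, 1 mesenchymal and 1 basal gene that fell, and leaving out I80 replicate 2 left 2 Wnt and 1 junction gene. Without DI150 replicate 1, 2 Wnt genes and 1 mesenchymal gene fell, and without DI150 replicate 3, 1 mesenchymal gene. The basal calls were lost without I80 replicate 2 or either DI150 library. Those that rose numbered 3 in the Wnt list without I80 replicate 1 or DI150 replicate 1, 4 in the integrin list without I80 replicate 2, and 5 in the junction list and 1 in the basal list without either PBS library. Of 37 lists with 877 genes, 8 had at least 2 members, 4 had 1, and 25 had none, among them DNA replication, mitosis, cholesterol synthesis, NRF2 targets and the interferon response.

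The PBS libraries differed from each other in these genes, a measure that the rule did not use. Of the 143 members, 117 (81.8%) had more CPM in PBS replicate 2 than in PBS replicate 1, where 56.9% of all tested genes did. The median of PBS replicate 2 minus replicate 1 was 0.27 for members and 0.04 for tested genes (log2). Anxa8, for example, was at 57.7 CPM in PBS replicate 1 and 132 CPM in replicate 2, and Arg1 at 13.3 and 45.9 CPM. With PBS replicate 2 left out of the steps, 132 genes passed and 80.3% of those were higher in replicate 2. The filter of 1 CPM still used all 6 libraries, so that selection was not wholly free of replicate 2. A first-step set held genes that passed the first step and whose second step was smaller in size than the threshold, up or down. It showed 63.6% (n = 1328), and genes rising stepwise 71.2% (n = 118). In I80, 52.4% of members were higher in replicate 2, against 51.7% of tested genes, and in DI150 44.8% were higher in replicate 3 than in replicate 1, against 56.6%. Csf1r and the immune marker sum were also higher in PBS replicate 2 (17.3 CPM) than in replicate 1 (9.81 CPM), and their part in this was not tested. These shares describe libraries, and genes are not independent replicates.

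**Figure D5:**
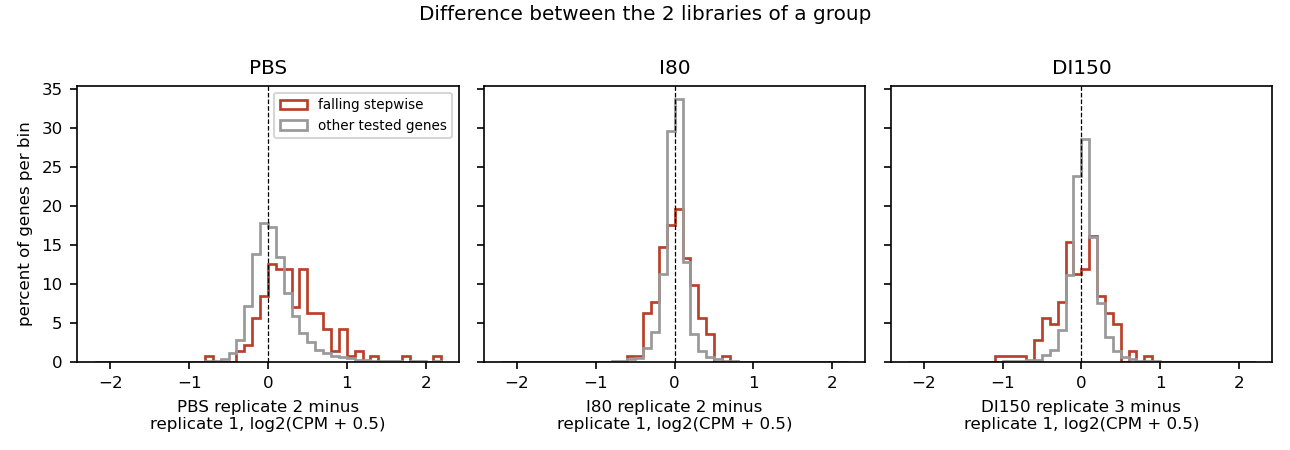
Distribution of the difference between the 2 libraries of a group in log2(CPM + 0.5), for members (red) and other tested genes (grey), as percent of genes per bin of each set. In PBS the members' curve is shifted to the right, with 81.8% above 0; in I80 and DI150 the members spread more widely around 0 without such a shift.

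Promoter sequence was the other property outside the rule. RefSeq windows of 250 bases before a start were available for 103 of the 143 genes, 148 windows in all. They held a median of 10.5 CpG, against 16 in 11533 windows of other tested genes. The median was 14 in the first-step set defined above and 12 in genes rising stepwise. Windows with under 10 CpG made up 47.3% of the members' windows and 26.3% of those of other tested genes. They made up 33.6% in the first-step set and 44.6% in genes rising stepwise. Low CpG content was thus shared with genes that moved the opposite way. The windows printed above for Spp1 and Sparc hold fewer CpG than the members' median and that of Igf2bp2 more.

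Short motifs were searched on both strands of the same windows. The AP-1 letters TGANTCA were in 12 of 148 member windows (8.11%), against 4.40% of windows of other tested genes. The TEAD letters GGAATG were in 13.5% against 10.7%, the TATA box TATAAA in 5.41% against 6.08%, and CCAAT in 34.5% against 35.4%. The GC box GGGCGG was in 48.6% against 59.1%, the E-box CACGTG in 4.05% against 8.38%, and the TCF letters CTTTGAT in 0.676% against 2.36%. A match describes letters in a window and does not show binding.

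By annotation, 139 members were protein-coding, 2 were long noncoding RNAs and 2 pseudogenes. They lay on most chromosomes, with 15 of 674 tested genes on chromosome 1 (2.23%), 16 of 842 on chromosome 7 (1.90%) and 3 of 553 on chromosome 3 (0.542%), beside 1.25% of all tested genes with a position. The median span from start to end was 18.9 kb for members and 23.6 kb for tested genes. A few members were neighbours. Acap1, Kctd11 and 2810408A11Rik start within 19 kb on chromosome 11, and Trpv6 and Ephb6 16 kb apart on chromosome 6. Also on chromosome 6, Bhlhe41 and Sspn start 73 kb apart; Fstl3 and Hcn2 are 60 kb apart on chromosome 10, and Apobec3 and Pdgfb 103 kb apart on chromosome 15. The 732 tested non-members within 200 kb of a member had a median first step of -0.16. For all tested non-members, these neighbours included, it was 0.01. At that step 20.2% of the neighbours passed -0.8, against 14.4% of all tested non-members. At the second step 2.60% of neighbours passed, against 4.01%.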

How the data were processed

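Total RNA of 6 libraries was depleted of ribosomal RNA and sequenced as single 81-base reads, per the labels' protocols. STAR and mm10 are named without versions in the submitters' processing notes; the tool that counted reads, its annotation and its strand setting are not stated there. Values were deposited by the authors as CPM for 24454 gene numbers, each column summing to 1000000. Columns were assigned by treatment name. A DI150 column numbered 3, where the labels number 1 and 2, is called DI150 replicate 3. Dividing by the value of a single read gave whole reads for 100.0% of values (within 1e-06). Floors (3 reads per library) and exact 95% intervals cover counting error only.

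Symbols, positions and promoter windows came from RefSeq GRCm38.p6, the build of mm10. The main test was limma 3.58.1 (R 4.3.3; eBayes with trend, 3 groups fitted together, two-sided, Benjamini-Hochberg over 11428 genes averaging at least 1 CPM, called at an adjusted p under 0.05) on log2(CPM + 0.5), with no replicate block. It was tested on simulated data. On the recovered reads, edgeR 4.0.16 called 3942 genes lower and 3668 higher in I80 against PBS, 4165 and 3687 in DI150 against PBS, and 2517 and 2480 in DI150 against I80; DESeq2 1.42.0 was run beside it.

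The members and the 37 gene lists were chosen with earlier results of these data known. The genes named by rule were the 12 members highest in PBS, the 10 with the largest PBS to DI150 difference among those with at least 5 CPM in PBS, and up to 20 members of lists that hold 2 or more, in all 31; 5 members with predicted names were counted and not described by role. Some genes are not reported here by name.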

Additional observations from a re-analysis of the deposited data

How the results depend on the processing

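The number of genes falling stepwise, 143, ran from 102 to 170 over pseudocounts, filters and scalings. It ran from 132 to 158 when a library was left out of the steps, with the filter on the mean still taken over all libraries. The fewest of the 143 that still passed then were 129, without I80 replicate 2 or without DI150 replicate 3. The number was 103 with both steps at -1 or lower and 216 with both at -0.6 or lower. The genes called lower in DI150 against I80, 2505 by limma, numbered 1327 with the replicate number as a block and 1187 to 2965 when a library was left out. In that block DI150 replicate 3 stands by itself and drops out of the fit. The block gave 3704 lower calls in I80 against PBS and 3367 in DI150 against PBS, each within 1.5 times of 3904 and 4120. The deviations of PBS and I80 libraries with the same number correlated at 0.023 over genes, so no shared deviation was seen between these groups. DI150 was not examined, and the value cannot show whether libraries with the same number were prepared together. Of 620 recomputed steps of the 31 genes named by rule, 572 stayed within the replicate spread, 48 moved and 0 changed sign. Of 768 recomputed counts of listed genes, 720 stayed within 1.5 times and 48 did not, nearly all in DI150 against I80; the cause was not tested. With a pseudocount of 1, 113 of the 143 members still passed. Members outside the 31 genes named by rule dropped out too and are not listed here. Among the 31, the second steps of Tead2, Arpin, Igf2bp2, Krt16, S100a14 and Anxa8 were then above -0.8 (-0.60, -0.49, -0.58, -0.51, -0.73 and -0.79). Without 1 library, those of Tead2 (-0.77 without I80 replicate 2), Igf2bp2 (-0.73 without DI150 replicate 3), Krt16 (-0.69 without I80 replicate 1 and -0.77 without DI150 replicate 3) and Wnt9a (-0.80 after rounding, just above it, without DI150 replicate 3) missed the threshold as well. The share of members with the larger step in I80, 71.3%, was 56.1% of those decided by ratios of mean CPM without a pseudocount, an alternative chosen after seeing the data. With 2 libraries per group, levels under about 0.13 CPM lie below the floor of 3 reads.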
